A study of Mus musculus with 24 samples.

Results

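The mRNAs of the cytosolic ribosomal proteins were examined in the brains of mice kept on 4 diets. A gene was counted as a member if its symbol was Rpl or Rps followed by a number, or was Rplp0, Rplp2 or Rpsa, and if at least 1 probe set (a group of oligonucleotides designed for 1 transcript) was listed for that gene alone. Rps6k kinase genes and pseudogenes were left out. Of 105 such probe sets, the one with the highest mean over all arrays was used for each gene. This gave 49 genes, of which 22 encode proteins of the large subunit, 21 encode proteins of the small subunit and 6 are paralogs or similar genes (Rpl22l1, Rpl39l, Rpl3l, Rpl7l1, Rps27l and Rps4l). The number of genes tested in the whole table was 11645, and with unannotated probe sets the number of features was 13839. The filter on the mean log2 level, the median of all probe sets at 4.07, was passed by 46 of the 49 genes. Rps16 (mean 2.89), Rpl39l (3.01) and Rpl3l (3.49) lay under it, so these probe sets gave no test for them.

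All mice were females of the strain NMR-1, 8 weeks old when the diets began, and were described by the submitters as genetically identical. They ate a mouse pellet diet (Pellet), fruit, vegetables and yogurt as given to captive chimpanzees (Chimpanzee), cooked cafeteria food (HumanCafe) or fast food only (FastFood) for 2 weeks. The Pellet mice stayed on the food they had been raised on, so that the other 3 groups also carry a change of food. Right cerebral hemispheres were taken from 6 mice per diet, 1 array per mouse, with 3 mice of each diet in each of 2 batches in which the extracted RNA was processed. The paper left out 1 Pellet brain sample because its RNA was degraded, without naming it, so that array is among the Pellet arrays used here.

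The cytosolic ribosome translates nuclear mRNAs. Its large subunit joins amino acids and its small subunit reads the mRNA, and each protein is encoded by its own gene. Their mRNAs are abundant in most cells, neurons and glia included. Because the particle needs its proteins in fixed proportions, these mRNAs tend to vary together. Most of these mRNAs begin with a terminal oligopyrimidine tract, a C at the first base followed by a run of C and U, through which the kinase mTOR and the protein Larp1 control their translation in response to nutrients. The arrays measured mRNA amounts, not translation.

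The start regions are shown because this tract is the feature that the family is known to share. RefSeq promoter sequences (GRCm38.p6) were matched for 43 of the 49 genes. Each line gives 15 bases before the annotated start of transcription and the first 15 bases from it, 5′ to 3′, with capitals where the annotated start is a C followed by at least 4 further pyrimidines. The capitals begin at the annotated start, although in all 8 such windows the base before it is also a pyrimidine.
Rpl35: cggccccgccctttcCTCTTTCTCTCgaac
Rpl38: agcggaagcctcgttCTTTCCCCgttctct
Rpl14: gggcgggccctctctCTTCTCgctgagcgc
Rplp2: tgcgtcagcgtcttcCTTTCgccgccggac
Rps6: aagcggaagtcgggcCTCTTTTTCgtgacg
Rps10: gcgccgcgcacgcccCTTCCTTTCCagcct
Rps18: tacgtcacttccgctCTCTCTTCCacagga
Rps27: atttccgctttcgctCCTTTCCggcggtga
Rpl4: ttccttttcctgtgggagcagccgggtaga
Rps2: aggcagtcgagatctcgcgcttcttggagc
Rpl27a: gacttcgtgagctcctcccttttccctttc
Rpl37: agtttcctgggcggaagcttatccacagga
Rpl27: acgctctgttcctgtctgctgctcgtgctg
The first 8 are all of the genes with such a run at the annotated start, and the last 5 are genes on which the comparisons below turn. On GRCm38.p6 the windows lie at chr2:39005117-39005146 for Rpl35, chr17:27635230-27635259 for Rps10, chr17:33955651-33955680 for Rps18, chr3:90213634-90213663 for Rps27 and chr4:86857353-86857382 for Rps6, all on the minus strand. Those on the plus strand lie at chr11:114668565-114668594 for Rpl38, chr9:120571502-120571531 for Rpl14, chr7:141447636-141447665 for Rplp2, chr9:64173372-64173401 for Rpl4, chr17:24720048-24720077 for Rps2, chr7:109519180-109519209 for Rpl27a, chr15:5116598-5116627 for Rpl37 and chr11:101442230-101442259 for Rpl27. Each spans the upstream flank and the first transcribed bases of its gene. Of 51 promoters of the 43 genes, 8 (15.7%) had the run at the start, against 2.51% of the 32851 promoters in the table, all read on the strand of the gene. A run of at least 7 pyrimidines anywhere in the 30 bases was present in 47.1% of the members' promoters and in 18.6% of all promoters. Whether a tract is found depends on the exact base annotated as the start. In the Rpl27a window, for example, an unbroken pyrimidine run spans the annotated start, but the base at the start is a T, so it was not counted.

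The labelled tissue was checked against fixed marker genes. All 10 neuronal markers, all 7 astrocyte markers and 7 of 8 oligodendrocyte markers had single-gene probe sets over the filter, and their mean log2 levels per array were 9.07 to 10.69 for neurons and 8.23 to 9.73 for oligodendrocytes. Of 8 liver markers with a probe set, 5 (Ahsg, Apoa2, Cyp3a11, Fga and Fgb) were under the filter and 3 (Alb, Apoa1 and Ttr, the last also a choroid plexus gene) were over it. In such bulk tissue, fewer cells of a type and less RNA per cell cannot be told apart. The SD of the log2 values over all probe sets differed between arrays, from 1.58 to 2.06, although the methods name a quantile normalization, which would make these distributions alike. Each comparison was therefore also made after quantile normalization of the deposited columns. Moreover, the 18S rRNA control signal (mean log2 of its probe sets) was 5.87 to 6.58 in batch 1 and 4.88 to 5.15 in batch 2 for the 3 diets other than Pellet, but 4.96 to 5.51 in Pellet arrays labelled batch 1 and 5.92 to 6.42 in those labelled batch 2. The Pellet arrays thus ran opposite to their batch labels on this measure. For this reason batch differences are given separately for Pellet and for the other diets. The diets are also compared within each labelled batch, and for Pellet those comparisons rest on the same labels.

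Diet was the question of the study, and no ribosomal protein gene passed the main test for it. That test fitted diet and batch without their interaction. The labelled batch difference, however, differed between Pellet and the other diets for 36 of 46 members in the deposited values (all features, 69.3%). The paper dropped probe sets with a significant interaction of diet and batch, which was not done here. With 8 diet-by-batch means, 1 member, Rpl27a, passed for Pellet minus FastFood (adjusted p = 0.0325, limma). The counts that follow are from the main test. In the test of 4 diets with batch as a second factor, 0 of 46 members had an adjusted p under 0.05 (limma), beside 6 of all 13839 features (0.0434%). At an unadjusted p under 0.05 there were 2 members, Rpl27a and Rpl14, beside 5.34% of all features. The count was 0 of 46 in each pair of diets, where the share of all features called was 0.00723% for Pellet against Chimpanzee, 0.0361% for Pellet against FastFood and 0% for the others, and 0 of 46 (all features, 0%) for the 2 human diets together against Chimpanzee. At an unadjusted p under 0.05 there were 2, 2 and 4 members for Pellet against Chimpanzee, HumanCafe and FastFood, 0 for HumanCafe and 2 for FastFood against Chimpanzee, 0 between HumanCafe and FastFood, and 2 for the human diets against Chimpanzee. The shares of all features at that threshold were 9.73%, 5.47% and 21.5% for the Pellet pairs, 1.42%, 1.82% and 0.658% for the other pairs and 2% for the human diets. These comparisons share arrays. After quantile normalization the counts were again 0 of 46, with 0.0144% of all features called in the test of 4 diets, 0.036% for Pellet against Chimpanzee, 0.0576% for Pellet against FastFood, 0.0072% each for FastFood and for both human diets against Chimpanzee, and 0% in the other pairs.

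Over the members as a group, the median differences between diets were no larger than the median SE per gene. Between the human diets and Chimpanzee the median log2 difference of the 46 members was -0.04, with a range of -0.13 to 0.70 and a median SE of 0.20 per gene, and the median of all features was 0.01. HumanCafe minus Chimpanzee had a median of -0.04, FastFood minus Chimpanzee of -0.035 and FastFood minus HumanCafe of 0.01. In Pellet the members had medians of -0.20 against Chimpanzee, -0.17 against HumanCafe and -0.17 against FastFood, where all features had medians of -0.14, -0.12 and -0.16. These medians rested on 1 array, since without replicate 1 of Pellet batch 2, the array with the smallest SD, they were -0.005, 0.029 and 0.035. Those against HumanCafe and FastFood thus changed sign, and that against Chimpanzee came near 0. The sign also depended on the scaling, since the 3 Pellet medians were 0.009, 0.002 and 0.07 after quantile normalization.

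Within the batches the Pellet comparisons went opposite ways. In batch 1 alone, the members' medians for Pellet minus Chimpanzee, HumanCafe and FastFood were 0.35, 0.31 and 0.32, with 0 of 46 called each (all features, 0.145%, 2.94% and 0.0939%) and 0 in the test of 4 diets (0.195%). In batch 2 alone the medians were -0.72, -0.625 and -0.65, with 37, 29 and 30 members called lower in Pellet, where 44.8%, 42.1% and 47.4% of all features were called lower, and 27 members were called in the test of 4 diets (43.2%). After quantile normalization the batch 2 medians were 0.04, 0.08 and 0.13, no member was called lower, and 0, 2 and 5 were called higher in Pellet (all features, 0.756%, 4.65% and 16.5%). In batch 1 after quantile normalization the medians were -0.06, -0.10 and -0.03, and 0, 2 and 0 members were called, the 2 being lower in Pellet than in HumanCafe (all features called lower, 1.92%). The 3 diets other than Pellet gave 0 called members in every pair in either batch, where at most 0.0361% of all features were called in the deposited values and 0.0504% after quantile normalization.

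Rpl27a, a large subunit protein, had the smallest p of the members in the test of 4 diets (adjusted p = 0.563, limma). Its deposited log2 values in the Pellet arrays were 5.80, 6.47 and 5.79 in labelled batch 1 and 5.62, 5.93 and 6.06 in batch 2. In the FastFood arrays they were 6.32, 6.39 and 6.83 in batch 1 and 6.59, 6.45 and 6.35 in batch 2. In the HumanCafe arrays they were 6.37, 6.78 and 6.38 in batch 1 and 6.28, 6.46 and 6.50 in batch 2. In the Chimpanzee arrays they were 6.60, 5.94 and 6.08 in batch 1 and 6.015, 6.31 and 6.24 in batch 2. In Pellet, 5 of 6 arrays lay under every FastFood and HumanCafe array in these values, and 1 array, replicate 2 of batch 1, lay among them. After quantile normalization, replicate 3 of Pellet batch 2 (6.28) also lay among them, above FastFood arrays at 6.22 and 6.276 and a HumanCafe array at 6.18. Pellet minus FastFood was then -0.37 (adjusted p = 0.22, limma). Pellet minus FastFood was -0.54 (SE 0.14, adjusted p = 0.216), Pellet minus HumanCafe was -0.52 (SE 0.14, adjusted p = 0.593) and Pellet minus Chimpanzee was -0.25 (SE 0.14, adjusted p = 0.451). The first of these passed with 8 diet-by-batch means in the model (adjusted p = 0.0325) and in batch 2 alone (-0.59, adjusted p = 0.00842), and its adjusted p was 0.0526 to 0.39 with single arrays left out. The probe set used for Rpl27a had a mean log2 of 6.27, and averaged with the gene's other single-gene probe set (mean log2 3.58, under the filter) the difference was -0.24 (adjusted p = 0.236).

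Rpl14, another large subunit protein, had the largest diet difference of any member, 0.89 for FastFood minus Chimpanzee (SE 0.26, adjusted p = 1, limma). Its log2 values in the Chimpanzee arrays were 4.18, 3.70 and 4.00 in batch 1 and 4.32, 3.92 and 4.85 in batch 2. In the FastFood arrays they were 4.63, 5.12 and 5.23 in batch 1 and 4.94, 5.17 and 5.25 in batch 2. The Chimpanzee and FastFood values overlapped through 1 Chimpanzee array, replicate 3 of batch 2. In the HumanCafe arrays the values were 3.84, 5.09 and 5.17 in batch 1 and 4.96, 3.89 and 5.00 in batch 2, and in the Pellet arrays they were 5.08, 4.28 and 4.26 in batch 1 and 3.93, 5.04 and 3.93 in batch 2. No array of any diet lay between 4.32 and 4.63, so that HumanCafe and Pellet each held values on both sides of a gap. The SD of Rpl14 over the 24 arrays, 0.55, was the largest of the 49 genes and remained 0.56 after quantile normalization, while those of Rpl38 (0.49) and Rpl4 (0.48) fell to 0.10 and 0.06. The smallest SDs were those of Rpl39l (0.15), Rps16 (0.16) and Rps27 (0.18). The first 2 were under the filter, and Rps27 was read from a dim probe set (mean log2 5.17).

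The pattern of Rpl14 came from a single probe set near the filter. The 5 other probe sets listed for Rpl14 are shared with the pseudogene Rpl14-ps1, and their mean log2 values were 9.30 to 10.47. In these, FastFood minus Chimpanzee was -0.11 to -0.05, with SEs of 0.21 to 0.23 and an adjusted p of 1 in each, and the unadjusted p in the test of 4 diets was 0.80 to 0.94. The difference of the single-gene probe set was thus not seen by the brighter probe sets of the same gene, and the cause was not tested.

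**Figure D1:**
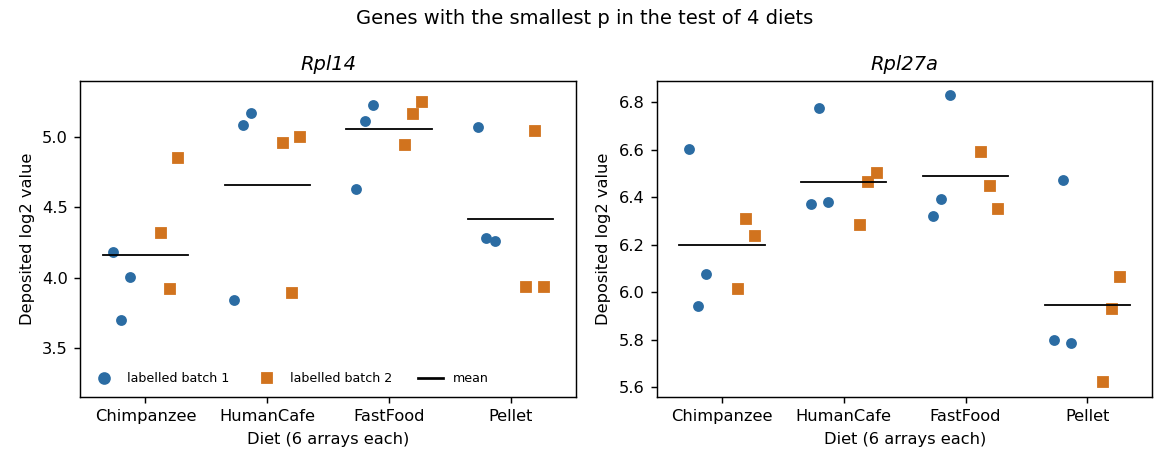
Deposited log2 values of Rpl14 and Rpl27a in each of the 24 arrays by diet, with circles for labelled batch 1, squares for labelled batch 2 and a line at the mean of 6 arrays. Rpl14 has no array between 4.32 and 4.63, and 5 of 6 Pellet arrays of Rpl27a lie under all FastFood and HumanCafe arrays.

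Rps6, the small subunit protein phosphorylated downstream of mTOR, was next in the test of 4 diets (adjusted p = 0.719, limma). Its lowest, median and highest log2 values were 5.15, 5.48 and 5.74 in Pellet, 5.52, 5.70 and 5.89 in Chimpanzee, 5.55, 5.72 and 5.92 in HumanCafe and 5.48, 5.745 and 5.93 in FastFood, and all groups overlapped. The 3 Pellet arrays labelled batch 2 (5.15 to 5.36) lay under every array of the other diets. The probe set used was dim (mean 5.66), and 9 further probe sets that Rps6 shares with the pseudogene Rps6-ps4, with means of 3.05 to 11.82, had an adjusted p of 0.794 to 0.999 in the test of 4 diets. Rpl7l1, a paralog of Rpl7, was -0.45 for Pellet minus Chimpanzee (SE 0.20, adjusted p = 0.451). Its Pellet values were 6.44, 6.55 and 6.51 in batch 1 and 4.93, 6.33 and 6.33 in batch 2, so that 1 array, replicate 1 of batch 2, lay far under the rest, and without it the difference was -0.19. That array also had the smallest SD of all log2 values (1.58).

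The batch was the second factor of the study, and 41 of 46 members had a batch difference above 0 in the deposited values (all features, 69.1%), against 6 of 46 after quantile normalization (44.3%). In the 18 arrays of Chimpanzee, HumanCafe and FastFood, 26 of 46 members were higher in batch 2 and 1 was lower in the deposited values, beside 40.3% and 9.46% of all features, whereas after quantile normalization 0 were higher and 25 were lower, beside 17.6% and 24.6% of all features. The median difference of the members, batch 2 minus batch 1, was 0.33 in the deposited values (all features, 0.135) and -0.13 after quantile normalization (all features, -0.03). The direction of the family between the batches therefore depended on the scaling. The count of 26 was 17 without replicate 2 of Chimpanzee batch 1 and 34 without replicate 1 of it. The share of all features called was not counted in these fits.

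Among the large subunit genes, Rpl4 differed most. Its log2 values in batch 1 were 11.80, 10.625 and 10.92 in Chimpanzee, 10.84, 11.18 and 11.33 in HumanCafe and 10.71, 10.94 and 11.73 in FastFood. In batch 2 all 9 values lay between 11.66 and 11.86. Of the batch 1 arrays, 2 (Chimpanzee replicate 1 and FastFood replicate 3) reached the batch 2 range and the other 7 lay under it. The difference was 0.65 (SE 0.13, adjusted p = 0.000425), and after quantile normalization it was 0.08 (SE 0.04, adjusted p = 0.0771). Rpl6, Rpl19 and Rpl13a followed at 0.55, 0.53 and 0.52 in the deposited values (adjusted p = 0.000957, 0.00348 and 0.00556), and after quantile normalization they were 0.05, -0.02 and -0.07, none past the test. In all, 14 of 22 large subunit genes were higher and 1 lower (median 0.35), and after quantile normalization 0 were higher and 11 lower (median -0.12).

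Among the small subunit genes the largest difference was that of Rps2. Rps2, which lies at the mRNA entry side of the small subunit, had a lowest, median and highest value of 11.05, 11.38 and 12.14 in batch 1 and of 11.89, 12.13 and 12.28 in batch 2. The difference was 0.57 (SE 0.13, adjusted p = 0.00112), and it was -0.07 (SE 0.04, adjusted p = 0.188) after quantile normalization. In all, 11 of 20 were higher and 0 lower (median 0.33), and after quantile normalization 0 were higher and 13 lower (median -0.15). Whether the subunits differed from each other was not tested.

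Rplp0 and Rplp2 belong to the stalk, the part of the large subunit that recruits translation factors. Rplp0 was 0.34 higher in batch 2 (SE 0.12, adjusted p = 0.0172) and Rplp2 was 0.46 higher (SE 0.13, adjusted p = 0.00659) in the deposited values, but after quantile normalization Rplp0 was at -0.14 (adjusted p = 0.0302) and Rplp2 was at -0.06 (adjusted p = 0.251). Rpsa, a small subunit protein also known as the laminin receptor, likewise turned from 0.34 (SE 0.12, adjusted p = 0.0289) to -0.17 (SE 0.05, adjusted p = 0.0165). Of the paralogs, Rpl22l1 turned from 0.31 (adjusted p = 0.049) to -0.16 (adjusted p = 0.0474), and Rpl7l1 (0.19), Rps27l (0.09) and Rps4l (-0.16) did not pass in either scaling. In the deposited values the call of Rpl22l1 was lost in 14 of 18 fits with 1 array left out (adjusted p up to 0.109) and that of Rpsa in 6 of 18 (up to 0.0679), while Rpl7l1 passed in 3 of 18 (adjusted p down to 0.0126).

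Rpl37 and Rpl27, both large subunit proteins, stood apart from this. Rpl37 was lower in batch 2 under either scaling. Its deposited values were 7.38 to 7.92 in batch 1 (median 7.61, n = 9) and 6.98 to 7.56 in batch 2 (median 7.32, n = 9), and the difference was -0.35 (SE 0.09, adjusted p = 0.00243). After quantile normalization the values were 7.61 to 7.80 and 6.78 to 7.40, with no overlap, and the difference was -0.59 (SE 0.07, adjusted p = 1.24e-05). Rpl27 did not pass in the deposited values (-0.0039, SE 0.11, adjusted p = 0.981), and after quantile normalization its batch 1 values of 9.68 to 9.91 all exceeded its batch 2 values of 9.12 to 9.58, with a difference of -0.44 (SE 0.06, adjusted p = 5.84e-05). Rps19 (-0.37), Rps28 (-0.32), Rps26 (-0.31) and Rpl41 (-0.28) were also among the 25 lower genes at the second scaling (adjusted p = 0.000159, 9.99e-05, 0.000563 and 0.000273).

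**Figure D2:**
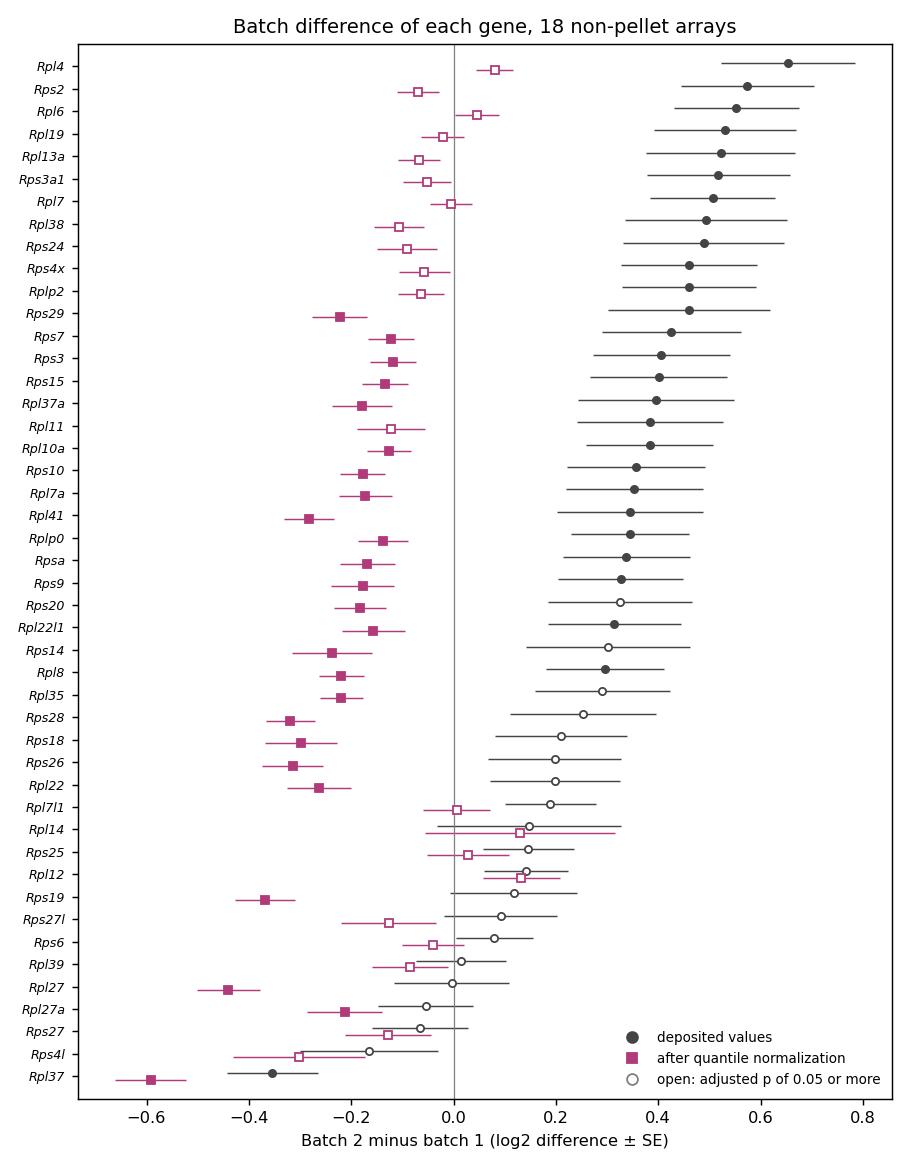
Batch 2 minus batch 1 in log2 with its SE for the 46 genes in the 18 Chimpanzee, HumanCafe and FastFood arrays, in the deposited values (circles) and after quantile normalization (squares). Filled symbols have an adjusted p under 0.05. In the deposited values 26 genes are filled to the right of 0, after quantile normalization 25 are filled to the left, and Rpl37 is filled to the left in both.

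The level of the signal moved with the batch difference. In the deposited values the median batch difference of all features was -0.005 at mean log2 levels under 6, 0.18 from 6 to 8, 0.33 from 8 to 9, 0.44 from 9 to 10, 0.54 from 10 to 11 and 0.65 from 11. The ribosomal protein genes, mostly bright, lay under these medians where most of them sit, at 0.345 for 19 genes from 10 to 11 and at 0.47 for 14 genes from 11. Of the 35 members with a level of at least 9, 26 had a smaller difference than the median of the 1114 features there (0.49, members' median 0.38), and after quantile normalization 33 of 35 did (medians 0.02 and -0.16). These are descriptions without a test. With each array centred on the median of the features at this level, an alternative added after the data were seen, 1 member was higher and 18 were lower (median -0.13). The share of all features called at this centring was not counted, so these counts have no background beside them.

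**Figure D3:**
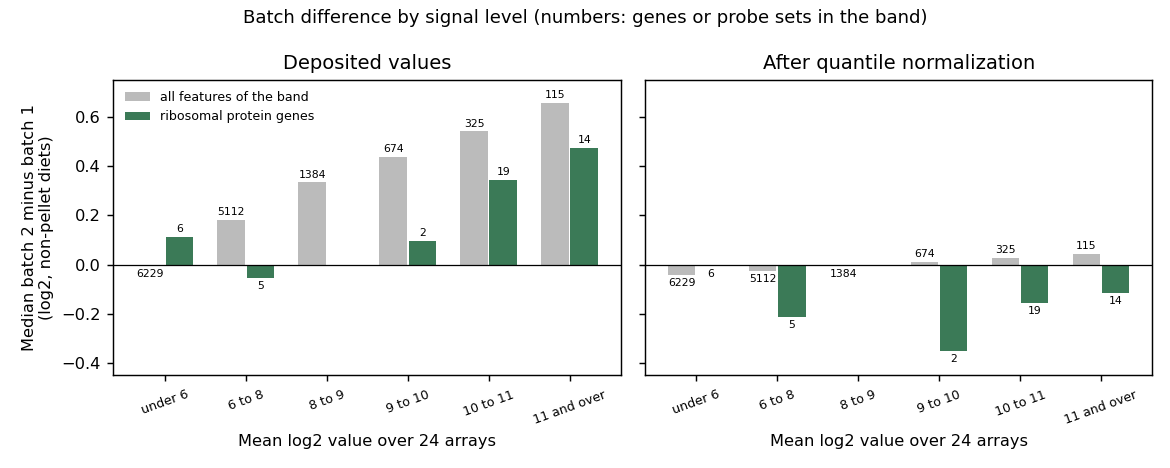
Median batch difference (batch 2 minus batch 1, log2, 18 non-pellet arrays) by mean log2 level, for all features of a band (grey) and for the ribosomal protein genes in it (green), with the number of each at the bar. In the deposited values the grey bars climb to 0.65 in the brightest band and the green bar there is 0.47. After quantile normalization the green bars are negative in every band that holds members, from -0.006 (under 6) to -0.35 (9 to 10).

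The arrays that set the deposited pattern can be seen from the median deviation of the 46 genes from their 24-array means. In the non-pellet arrays of batch 2 it was 0.12 to 0.33. In batch 1 it was 0.47, -0.60 and -0.355 in Chimpanzee, -0.44, -0.02 and 0.08 in HumanCafe and -0.54, -0.27 and 0.46 in FastFood. The pair of batch 1 arrays at 0.47 and 0.46, Chimpanzee replicate 1 and FastFood replicate 3, had SDs over all probe sets of 2.02 each, in the range of the batch 2 arrays (2.01 to 2.06), whereas the other 7 had SDs of 1.81 to 1.92. With both left out, the 25 lower genes after quantile normalization became 17 (median -0.11), and the share of all features was not counted there. After quantile normalization every array lay between -0.20 and 0.16. The Actb 3′ minus 5′ difference, a measure of RNA integrity, was 0.42 to 0.63 in these batch 1 arrays and 0.37 to 0.68 in batch 2, which overlap. In the Pellet arrays it was 0.37 to 0.64, with 0.42 in replicate 1 and 0.64 in replicate 3 of batch 2. The same difference for Gapdh was highest of all arrays in replicate 3 of Pellet batch 2 (0.13), and was 0.06 in replicate 1. The summed level of the neuronal markers moved with batch too, with 9 of 10 higher in batch 2 in the deposited values (median 0.66) and 6 of 10 after quantile normalization (median 0.16), as did the astrocyte markers (6 of 7, median 0.63, and 2 of 7, median 0.155). Of the other markers, 6 of 7 oligodendrocyte, 2 of 8 microglia, 3 of 6 choroid plexus, 0 of 1 blood and 1 of 3 liver genes were higher in batch 2 in the deposited values. The share of all features called higher was 40.3% in the deposited values and 17.6% after quantile normalization. The part of these measures in the ribosomal protein result was not tested.

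**Figure D4:**
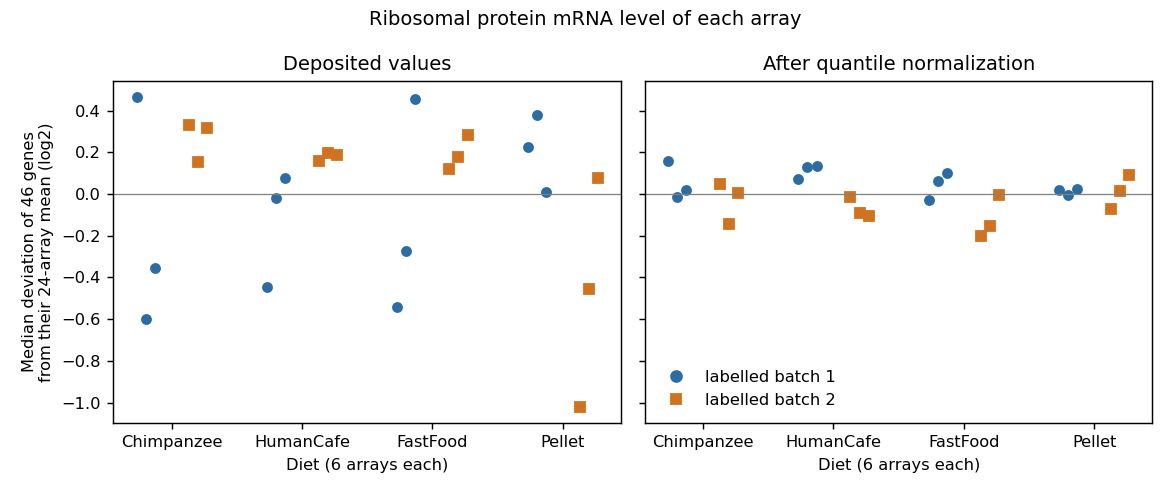
Median deviation of the 46 genes from their own 24-array means in each array, in log2, before and after quantile normalization, by diet and labelled batch. In the deposited values 1 Pellet array of labelled batch 2 lies at -1.02, while after quantile normalization all arrays lie between -0.20 and 0.16.

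Within single diets the batch difference of the members had medians of 0.41 in Chimpanzee, 0.29 in HumanCafe and 0.29 in FastFood in the deposited values, with 0 members called in each (all features called higher, 0.0361%, 0.802% and 0.997%). At an unadjusted p under 0.05 there were 7, 2 and 3 members, beside 15%, 23.7% and 20.8% of all features. After quantile normalization the medians were -0.075, -0.18 and -0.17, and 0, 4 and 4 members were called lower (all features, 0%, 0.9% and 1.35%).

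In the Pellet arrays the labelled batch difference ran the other way in the deposited values. Labelled batch 2 minus batch 1 had a median of -0.65 over the members (all features, -0.42), with 28 of 46 lower and 0 higher, beside 51.2% of all features lower, but after quantile normalization the median was 0.02 and 3 were higher and 2 lower, beside 18.8% and 19.5%. Rplp2 differed most, from 11.06, 11.34 and 11.51 (lowest to highest) in labelled batch 1 to 9.82, 10.43 and 10.975 in labelled batch 2, a difference of -0.90 (SE 0.275, adjusted p = 0.0109) that was -0.21 (adjusted p = 0.04) after quantile normalization. Rpl19 (-0.83), Rps2 (-0.83), Rpl4 (-0.83) and Rps3a1 (-0.81) came next. The count of 28 rested on single arrays, since it was 0 without replicate 1 of Pellet batch 2 and 40 without replicate 3. In those fits the share of all features called was not counted. After quantile normalization the higher genes were Rps25 (0.44), Rpl37 (0.35) and Rpl27 (0.32), and the lower ones were Rpl12 (-0.51) and Rplp2. Rps25 and Rpl12 were read from dim probe sets, with mean log2 values of 5.70 and 4.45. The Rps25 values at this scaling were 6.385, 5.66 and 6.085 in replicates 1 to 3 of Pellet batch 2. These calls were not refitted with single arrays left out.

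The difference between the Pellet batch difference and that of the other diets was tested itself. In the deposited values 36 of 46 members had a lower value in Pellet and 0 a higher one (median -0.98), beside 55.6% of all features lower (median -0.55), whereas after quantile normalization 13 were higher and 2 lower (median 0.16), beside 26.2% and 25.7% of all features. Rpl4 was at -1.48 (SE 0.31, adjusted p = 0.000555), Rps2 at -1.41, Rpl19 at -1.36, Rplp2 at -1.36 and Rpl6 at -1.34 in the deposited values. After quantile normalization Rpl4 was at -0.19 (adjusted p = 0.0358), while Rpl37 (0.94, SE 0.14, adjusted p = 0.000257) and Rpl27 (0.76, SE 0.12, adjusted p = 0.00026) led the genes on the higher side. Both had been lower in batch 2 than in batch 1 in the other diets at this scaling. The signs of the Pellet batch difference and the size of its difference from the other diets rest on the batch labels of the Pellet arrays, to which their 18S rRNA signal ran opposite. If those labels were exchanged, the Pellet difference would turn its sign, and whether they were was not tested.

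Different probe sets of 1 gene did not always give the same batch difference. Of the 24 members with more than 1 single-gene probe set, Rps3, Rps24 and Rps4x spread most. For Rps3, a small subunit protein that also acts in DNA repair, the probe set used was at 0.41 and another, with a mean log2 of 3.995, was at -0.61 (deposited values). For Rps24 the probe sets ranged from -0.53 to 0.49, and for Rps4x from -0.06 to 0.46. In each of these genes the divergent probe set was dim, with a mean log2 under 5, beside levels of 10.5 to 11.4 for the one used.

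Ribosomal protein genes have many processed pseudogenes, and 27 of the 77 core subunit genes on a fixed list had only probe sets shared with other genes, among them Rpl3, Rpl5 and Rplp1, while 7 had neither kind and were not analysed here. These 27 genes, read through their brightest shared probe sets, gave 20 higher and 0 lower in the batch comparison (median 0.41) and, after quantile normalization, 1 higher and 18 lower (median -0.14), with 0 called in the test of 4 diets. Of all features, 40.3% were higher and 9.46% lower in that batch comparison, and 17.6% and 24.6% after quantile normalization. Signal from transcribed pseudogenes cannot be separated in the shared probe sets. Fau, whose product carries the small subunit protein Rps30 and whose symbol falls outside the naming rule, was at 0.38 (SE 0.15, adjusted p = 0.0405) and at -0.15 (adjusted p = 0.0503) after quantile normalization.

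Other genes of the pathway were read from fixed lists for the same batch comparison. Of all features, 40.3% were called higher and 9.46% lower in the deposited values, and 17.6% and 24.6% after quantile normalization. The deposited share called higher rose with level, to 70.1% at mean log2 levels of 8 to 9 and 96.5% from 11. Whether any list differed from these shares was not tested. Of 20 further mRNAs known to carry a terminal oligopyrimidine tract, 16 were higher and 0 lower (median 0.36), among them Eif2s3x (0.76), Eef1a1 (0.81) and Eif3l (0.40), and after quantile normalization 2 were higher and 5 lower (median -0.01). Of 21 translation initiation genes, 16 were higher and 0 lower (median 0.37), and after quantile normalization 6 were higher and 5 lower (median 0.02). Eif4e, the cap-binding protein, was at 0.74 (SE 0.08, adjusted p = 1.67e-06) and at 0.33 (adjusted p = 7.28e-05) after quantile normalization. Of 12 genes that control ribosomal protein translation, 6 were higher and 1 lower (median 0.20), and after quantile normalization 2 were higher and 3 lower (median -0.05). Larp1, which binds the tract, was at 0.40 (SE 0.08, adjusted p = 0.000336) and at 0.13 (adjusted p = 0.0421).

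Of 42 ribosome biogenesis genes, 18 were higher and 3 lower (median 0.14), and after quantile normalization 6 were higher and 10 lower (median -0.05). Ncl, the nucleolar protein nucleolin, was at 0.58 (SE 0.10, adjusted p = 7.61e-05) and at 0.15 (adjusted p = 0.00761). Of 76 mitochondrial ribosomal protein genes, 14 were higher and 1 lower (median 0.09), and after quantile normalization 1 was higher and 37 lower (median -0.15). Mrpl50 was the exception in that it was higher under both scalings, at 0.64 (SE 0.09, adjusted p = 9.86e-06) and 0.45 (adjusted p = 0.000145). For the human diets against Chimpanzee and for Pellet against FastFood, 0 genes of any of these lists were called.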

How the data were processed

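The deposited log2 values came from Affymetrix mouse arrays, for which the authors ran rma (R package affy), a procedure with a quantile normalization among its steps. The table holds 45101 probe sets and 24 arrays, and 1 Pellet array that the methods exclude for RNA degradation is not named, so all were used. Array number limits the precision (6 mice per diet). Probe sets with 1 listed gene (34945) and those with none (9160) were kept, 1 per gene, and features under the median mean level (4.07) were dropped. The main test was limma 3.58.1 (R 4.3.3) with diet and batch, Benjamini-Hochberg over 13839 features. The batch was fitted on 18 non-pellet arrays, and the Pellet batch difference in 8 diet-by-batch means. Scripts were tested on simulated data, and plots were drawn with matplotlib. Members and gene lists were chosen with earlier results of these data known. Genes named are those called (up to 5 per direction), the 3 smallest p per diet comparison, stalk proteins, Rpsa, paralogs, the largest and smallest SDs and the 3 genes whose probe sets differ most. Rpl27 and other genes called after quantile normalization were chosen after their values were seen. Alternatives covered filters, scaling, probe set choice, array weights, an 18S covariate, batch terms and left-out arrays.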

Additional observations from a re-analysis of the deposited data

Results flagged for a closer look

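Single arrays far from the rest of their group were found in 8 of 162 groups of values, where chance gives about 1 in 20. HumanCafe batch 1 replicate 1 stood apart for Rpl22l1 (9.575), Rpl3l (3.89), Rpsa (10.21) and the median deviation of all members (-0.44), each in log2. Pellet batch 2 replicate 1 stood apart for Rpl7l1 (4.93) and Rps27l (5.77), FastFood batch 1 replicate 1 for Rps25 (5.23), and HumanCafe batch 2 replicate 1 for Rpl13a among the non-pellet arrays of batch 2 (11.69).

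The labelled batch difference differed between Pellet and the other diets for 36 members in the deposited values (limma interaction, adjusted p under 0.05). Rpl4 (-1.48), Rps2 (-1.41), Rpl19 (-1.36), Rplp2 (-1.36) and Rpl6 (-1.34) had the largest differences, and after quantile normalization 13 members were higher and 2 lower.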

How the results depend on the processing

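Of the comparisons' counts and batch medians, 165 values changed by less than the limit set for them, 45 by more and 6 reversed, single left-out arrays aside. Among the single-gene values and the diet medians, 590 kept their side of the threshold or, for a median, stayed within its limit. Of the rest, 78 lost significance, 10 gained it, 22 reversed and 6 medians of Pellet comparisons in single batches moved beyond the limit. A gene that passed neither before nor after was counted as unchanged whatever its direction. Quantile normalization changed the non-pellet batch comparison to 0 members higher and 25 lower (median -0.131), the Pellet batch comparison to 3 and 2 (median 0.018) and their difference to 13 and 2 (median 0.159). It reversed Rps2 (-0.069), Rpl19 (-0.021), Rpl13a (-0.067), Rplp0 (-0.138), Rplp2 (-0.064), Rpsa (-0.169), Rpl22l1 (-0.157), Rps3 (-0.119), Rps24 (-0.091) and Rps4x (-0.057) between batches, and Rps2 in the difference of batch differences (0.017). Centring arrays on their median gave 14 higher and 2 lower, 2 and 0 in Pellet, and 3 and 14 for the difference (median -0.514). The share of all features called was not counted for this centring or the next. Centring on the features from a log2 level of 9, chosen after seeing the data, gave 1 and 18 (median -0.133), 5 and 0 (0.018), and 8 and 1 (0.154), and reversed Rplp0 (-0.12), Rplp2 (-0.005), Rpsa (-0.127), Rpl22l1 (-0.151), Rpl7l1 (-0.276), Rps27l (-0.373), Rps3 (-0.059) and Rps4x (-0.005). The cause was not tested.

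For the filters, probe set choices, array weights, covariate, 8 diet-by-batch means, replicate block and left-out arrays, the share of all features called was also not counted. The members' counts for these have no background beside them. Without the filter 2 members were lower between batches, 2 higher and 17 lower in Pellet, and 2 higher for the difference. The probe set with the largest SD gave 2 lower, 1 higher in Pellet and 1 higher for the difference, and reversed Rps24 (-0.526), while the mean over probe sets turned Rps3 to -0.006. Array weights gave 8 lower in Pellet (median -0.159) and 1 higher for the difference. With the 18S covariate, which moves with batch, the medians were 1.614, -1.613 and -2.961, 0 members were lower between batches and Rpl37 was at 0.221. Each diet alone gave 0 higher and 0 lower, and the genes with shared probe sets gave 0 lower. Batch 2 alone gave 27 members for the 4 diets and 37, 29 and 30 for Pellet against Chimpanzee, HumanCafe and FastFood, and 8 diet-by-batch means gave 1 for Pellet against FastFood (Rpl27a). Leaving out single arrays, the members higher in batch 2 were 17 (without Chimpanzee batch 1 replicate 2) to 34 (without Chimpanzee batch 1 replicate 1), and those lower in Pellet were 0 (without Pellet batch 2 replicate 1) to 40 (without Pellet batch 2 replicate 3).

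The replicate numbers were not taken to pair the samples, since correlations of same-numbered arrays ran from -0.512 to 0.484. With the replicate block 25 members were higher and 1 lower between batches, 27 lower in Pellet, 36 lower for the difference and 0 called for any diet comparison. Array number limits what could be seen, with a median SE of 0.228 per gene between 2 diets.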
